A study of Mus musculus with 13 samples.

Results

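Cldn1, Cldn3, Cldn4, Cldn7, Ocln, Tjp1, F11r, Cdh1 and Epcam, 9 genes of epithelial tight junctions and cell adhesion, were followed through a scRNA-seq atlas of the mouse liver during cholestatic injury. They were taken by name from the 55353 genes listed in the files, and all 9 are listed there. Their unique molecular identifier (UMI) counts were read in barcodes with at least 1500 UMIs, which were counted as cells and numbered 95563 over 13 libraries. Biliary epithelial cells (BEC) were the 4448 barcodes with at least 2 UMIs of the biliary keratin genes Krt7 and Krt19 together and none of the leukocyte gene Ptprc. Of these, 1097 barcodes with at least 3 UMIs of Dmbt1 and Muc4 together were called large duct BEC, and 3167 barcodes with 0 such UMIs were called small duct BEC. The other 184 BEC barcodes had 1 or 2 UMIs of these genes and entered only the sums over all BEC. Liver sinusoidal endothelial cells (LSEC), the fenestrated lining of the sinusoids, were 17851 barcodes with at least 2 UMIs of Stab2 and Clec4g. Hepatocytes were 63 barcodes in which the plasma protein genes Alb, Apoa1, Ttr and Serpina1c held at least 5% of the UMIs, with at least 5 UMIs of Cps1, Cyp2e1, Ass1 and Hnf4a. LSEC and hepatocytes held no Ptprc, and all classes other than BEC had fewer than 2 UMIs of Krt7 and Krt19. Barcodes with keratin and LSEC genes thus counted as BEC, such as 120 of 908 BEC barcodes in D9 A and 53 of 303 in STOP. The part of this rule in the low epithelial levels outside BEC was not tested. Counts were summed over the barcodes of a class in a library, which is called a sum below, and a sum needed at least 20 barcodes. A level is given in CPM, the usual scaling of a gene's UMIs to the total UMIs of its sum.

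All libraries came from livers of male C57BL/6J mice aged 6 to 12 weeks. The chow held 0.1% of 3,5-Diethoxycarbonyl-1,4-Dihydrocollidine (DDC), a compound that injures bile ducts, for 0, 3, 5, 9, 19 or 25 days, with D0 as the control without DDC. Each of these 6 time points had 1 library by isolation protocol A and 1 by protocol B, and 1 further protocol B library (STOP) was made after 18 days of DDC and 7 days of recovery. The protocol B library of D19 carries day 18 in its group label, and STOP carries day 19 there. Both protocols pooled sorted fractions at equal ratios, and Epcam+ cells were 1 of these fractions in both. The number of BEC barcodes in a library was therefore partly set by the sort. Whether the level of Epcam RNA depended on it was not tested. The labels do not tie libraries to mice, so p-values measure the spread between libraries, and the protocols also differed in the index version of the 10x 3' kit. D0 is called steady state, D3 and D5 onset, and D9, D19 and D25 progression.

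Tight junctions seal the space between neighbouring epithelial cells and, in the biliary tree, keep bile apart from tissue and blood. Claudins and occludin (Ocln) are membrane proteins of the seal, and ZO-1 (Tjp1) is the scaffold beneath it that ties them to actin. JAM-A (F11r) is an immunoglobulin-like adhesion protein of junctions that endothelium and leukocytes use as well. E-cadherin (Cdh1) forms the adherens junction of epithelia, and EpCAM (Epcam) is a surface adhesion protein that marks BEC in the adult liver and is a common target for sorting them.

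On GRCm38 with GENCODE vM21, Cldn3 (chr5:134986214-134987472, plus strand) and Cldn4 (chr5:134945119-134946934, minus strand) lie next to each other with 39279 bases between them. Epcam lies at chr17:87635979-87651129 on the plus strand, F11r at chr1:171437535-171464603 on the plus strand, and Tjp1 at chr7:65296165-65527781 on the minus strand. Cldn7 lies at chr11:69964779-69967885 (plus), Cdh1 at chr8:106603351-106670246 (plus), Ocln at chr13:100496507-100552718 (minus) and Cldn1 at chr16:26356642-26371841 (minus). RefSeq promoter entries of GRCm38.p6 were matched for 8 of the 9 genes, with 10 entries in all. The 250 bases upstream of the annotated start are shown for Epcam, Cldn3 and Cldn4, which were high in BEC and not above free RNA in LSEC, and for F11r and Tjp1, which were shared with endothelium. Capitals mark matches on either strand to ACCGGT (the Grainyhead-like core), CACCTG (an E-box, read as CAGGTG on the other strand) and GGGCGG (a GC box, read as CCGCCC on the other strand), and no 2 marked matches overlap.
Epcam (chr17:87635729-87635978, plus strand): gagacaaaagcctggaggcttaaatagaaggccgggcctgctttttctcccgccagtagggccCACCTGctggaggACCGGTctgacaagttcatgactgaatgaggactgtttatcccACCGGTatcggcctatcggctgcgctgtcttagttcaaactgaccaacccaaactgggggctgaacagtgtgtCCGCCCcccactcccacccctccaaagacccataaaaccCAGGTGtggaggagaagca
Cldn3 (chr5:134985964-134986213, plus strand): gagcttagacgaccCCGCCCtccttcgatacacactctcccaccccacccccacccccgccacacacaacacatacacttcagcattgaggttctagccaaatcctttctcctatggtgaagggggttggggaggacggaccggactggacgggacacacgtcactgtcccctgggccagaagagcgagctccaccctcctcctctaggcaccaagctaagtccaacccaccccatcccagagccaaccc
Cldn4 (chr5:134946935-134947184, minus strand): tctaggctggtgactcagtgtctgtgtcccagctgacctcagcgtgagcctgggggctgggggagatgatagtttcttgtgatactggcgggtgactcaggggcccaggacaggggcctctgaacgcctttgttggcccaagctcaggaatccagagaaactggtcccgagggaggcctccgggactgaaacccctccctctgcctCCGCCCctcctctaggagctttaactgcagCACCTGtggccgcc
F11r (chr1:171437311-171437560, plus strand): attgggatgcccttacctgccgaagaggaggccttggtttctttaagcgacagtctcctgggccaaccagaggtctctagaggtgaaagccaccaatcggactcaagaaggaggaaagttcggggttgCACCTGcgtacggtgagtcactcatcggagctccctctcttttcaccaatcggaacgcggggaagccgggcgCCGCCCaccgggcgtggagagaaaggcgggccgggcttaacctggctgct
Tjp1 (chr7:65371245-65371494, minus strand): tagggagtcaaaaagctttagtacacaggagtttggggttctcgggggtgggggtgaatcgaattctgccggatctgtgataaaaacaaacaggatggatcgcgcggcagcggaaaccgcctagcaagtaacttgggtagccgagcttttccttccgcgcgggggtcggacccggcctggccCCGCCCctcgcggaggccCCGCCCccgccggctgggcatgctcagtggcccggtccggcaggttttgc
Of all 32851 promoter windows of this length, 1.86% held the Grainyhead-like core, and of the 10 entries for these genes 1 did, that of Epcam with 2 matches. The E-box was held by 17.2% of all windows and by 5 of the 10 entries, and the GC box by 32.7% of all windows and by 9 of the 10. The windows of F11r and Tjp1 start from RefSeq starts that lie within the GENCODE gene spans. A match describes letters in the window and is not a measured binding site.

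Libraries held 29307190 to 108602421 UMIs, of which 65.0% to 93.4% lay in barcodes with at least 1500 UMIs. Over 78 pairs of libraries, the largest number of shared barcodes was 49 (D9 A and D25 A) and the largest share of the smaller library was 0.519% (D3 B and STOP, 8 barcodes). Small duct BEC gave a sum in 10 libraries, large duct BEC in 9, LSEC in 13 and hepatocytes in 2, namely D25 B with 27 and STOP with 31 barcodes. Steady-state BEC came from 1 library, D0 A, since D0 B had 1 BEC barcode. Median UMIs per barcode ran from 8950 to 21747 in small duct BEC, from 11548 to 24438 in large duct BEC, from 2340 to 9149 in LSEC and from 3084 to 4294 in hepatocytes. Doublets were not removed, and 1898 barcodes with at least 2 keratin UMIs were kept out of BEC because they held Ptprc. Their number differed by library, with 69 beside 653 BEC barcodes in D0 A and 340 beside 908 in D9 A. It was 89 beside 92 in D3 B, 219 beside 235 in D5 B and 303 beside 303 in STOP. The part of this loss in the comparisons over the diet was not tested. Markers outside the gates were read as a check of the classes. Krt8 held 2154 to 3592 CPM in small duct BEC, 2441 to 3916 CPM in large duct BEC and 0 to 32.3 CPM in LSEC. Sox9, a biliary transcription factor, held 334 to 1222, 30.5 to 472 and 0 to 13.2 CPM in the same order, and Kdr, an endothelial receptor, 77.7 to 339, 2.69 to 274 and 1562 to 3628 CPM. All 8 genes of the hepatocyte list were part of the hepatocyte gate, so they do not check that class, in which 7 of 8 LSEC markers were at 0. The BEC list of 8 genes, which includes Krt7 and Krt19 of the gates, summed to 3423 to 8353 CPM in hepatocytes. It summed to 23095 to 42119 CPM in small and 14074 to 23420 CPM in large duct BEC. The part of BEC RNA in the hepatocyte values was not tested. Free RNA, read from barcodes with 1 to 100 UMIs, is given as a background beside the levels below, and a sum is called above it where the lower bound of its 95% exact counting interval exceeds the free RNA of the same library.

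**Figure D1:**
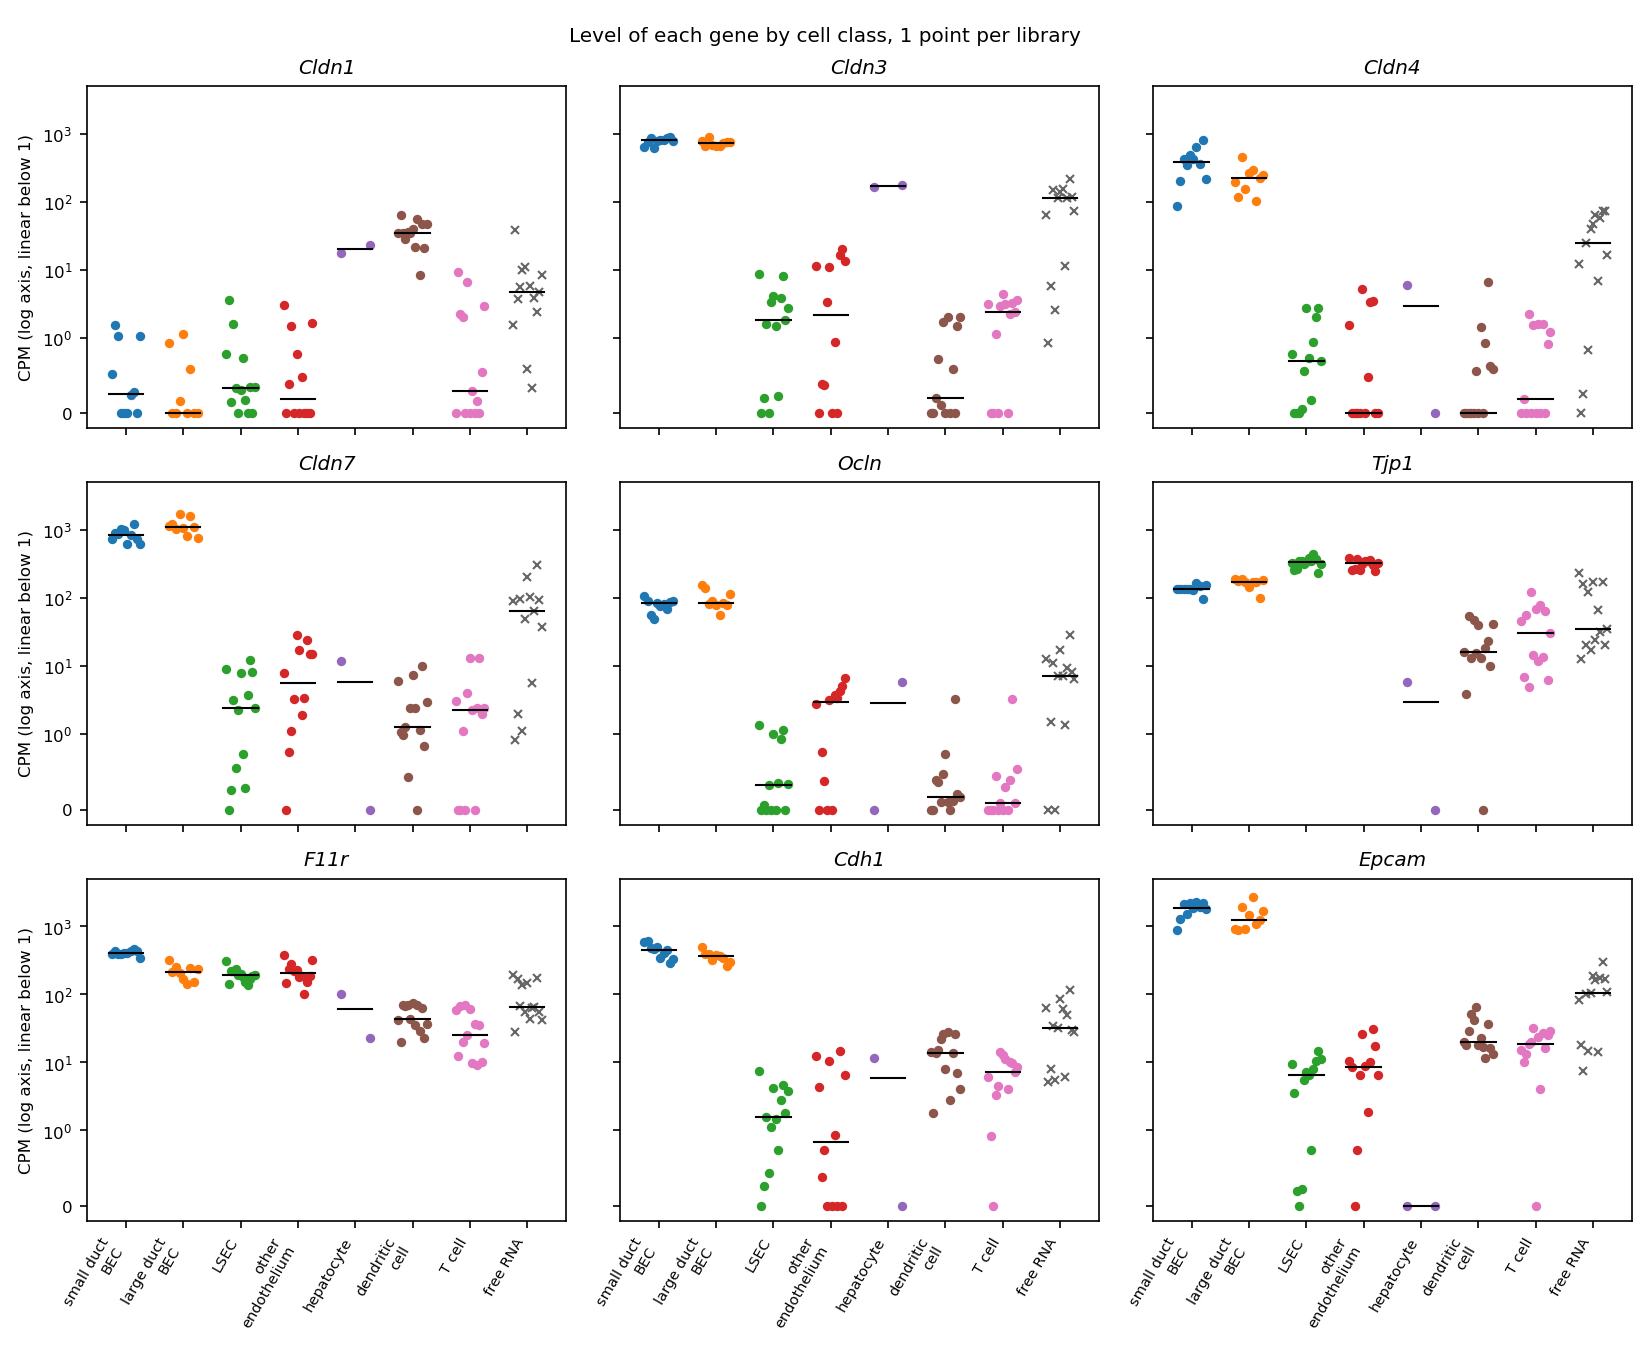
Level of each of the 9 genes in CPM (vertical, log axis that is linear below 1) by cell class and in free RNA (horizontal), 1 point per library with the median of each class as a black line. The 6 genes Cldn3, Cldn4, Cldn7, Ocln, Cdh1 and Epcam stand apart in BEC, Tjp1 stands highest in LSEC and the other endothelium, F11r is shared, and Cldn1 stands highest in dendritic cells (median 34.6 CPM).

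Cldn3, Cldn4, Cldn7, Ocln, Cdh1 and Epcam were high in BEC and near or below free RNA in LSEC. Over 10 libraries, Epcam in BEC ran from 901 to 2382 CPM with a median of 1816, and over 13 libraries it ran from 0 to 14.6 CPM with a median of 6.59 in LSEC. Cldn7 ran from 631 to 1396 CPM (median 857) in BEC and from 0 to 12.1 (median 2.39) in LSEC. Cldn3 ran from 641 to 871 CPM (median 776) in BEC and from 0 to 8.47 (median 1.82) in LSEC. No BEC library fell as low as the highest LSEC library for any of these 6 genes. The share of all genes separated in this way was not counted, and 73.7% of all genes tested differed between the classes. Cldn4 had the widest range among them in BEC, from 102 to 670 CPM with a median of 315. Cdh1 ran from 287 to 587 CPM with a median of 401, and Ocln from 59.3 to 114 CPM with a median of 81.5. In free RNA, Epcam ran from 7.40 to 305 CPM, Cldn7 from 0.926 to 307, Cldn3 from 0.926 to 212, Cdh1 from 5.09 to 118, Cldn4 from 0 to 73.6 and Ocln from 0 to 29.0. All 6 genes were above the free RNA of the same library in 10 of 10 BEC sums. In LSEC, Cldn3, Cldn4, Cldn7, Cdh1 and Epcam were above it in 0 of 13 sums and Ocln in 1 of 13.

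Tested across all genes by edgeR's quasi-likelihood test with the library as a block and Benjamini-Hochberg adjustment, BEC differed from LSEC in 11116 of 15091 genes (73.7%; 40.8% higher and 32.9% lower in BEC). Of the 9 genes, 7 were higher and 1 lower in BEC, with a median log2 fold change of 6.92 against 0.12 over all genes tested. Most genes differed between the classes, and the values below are given for their size. Epcam was higher by a log2 fold change of 7.80, Cldn4 by 7.76, Cldn3 by 7.66 (SE 0.36), Cldn7 by 7.63, Cdh1 by 6.92 and Ocln by 6.61, with adjusted p of at most 8.66e-13 by edgeR. Each of the 6 was higher in BEC in 10 of 10 libraries. Their levels in LSEC were near or below free RNA, so these sizes are distances from a background and not from a measured LSEC level. Cldn4 and Ocln, with LSEC means of 0.873 and 0.425 CPM, were too low to test within LSEC.

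F11r and Tjp1 did not follow this split. F11r averaged 358 ± 29.5 CPM (SD, n = 10) in BEC and 197 ± 47.5 CPM (SD, n = 13) in LSEC. It was 1.79-fold higher in BEC (log2 fold change 0.84, SE 0.13, adjusted p = 1.16e-05 by edgeR), in 10 of 10 libraries, although the ranges of the classes overlapped. Tjp1 averaged 144 ± 20.7 CPM (SD, n = 10) in BEC and 334 ± 57.6 CPM (SD, n = 13) in LSEC. It was 2.50-fold lower in BEC (log2 fold change -1.32, SE 0.11, adjusted p = 8.04e-10 by edgeR), in 10 of 10 libraries. Endothelial barcodes with Pecam1 and Cdh5 but no Stab2 or Clec4g held 253 to 388 CPM of Tjp1 (median 322) and 100 to 387 CPM of F11r (median 204) over 12 libraries. These barcodes, called the other endothelium, held markers of both kinds of endothelium. Vwf, known from larger vessels, had a median of 719 CPM there and 23.1 CPM in LSEC, while Stab1 and Lyve1, known from LSEC, had medians of 473 and 303 CPM there and 924 and 815 CPM in LSEC. How many of them were LSEC without a Stab2 or Clec4g UMI was not tested, so the levels are not given as those of vessels outside the sinusoid. Free RNA ran from 28.2 to 196 CPM for F11r and from 12.5 to 235 for Tjp1. F11r in BEC was above it in 10 of 10 libraries, and Tjp1 in 7 of 10, the exceptions being D0 A, D9 A and D25 A with 235, 175 and 174 CPM of Tjp1 in free RNA. Tjp1 in LSEC was above it in 13 of 13.

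Cldn1, a claudin known from hepatocytes and skin, was nearly absent from BEC. It ran from 0 to 1.08 CPM over 10 BEC libraries and from 0 to 3.55 CPM over 13 LSEC libraries, and the difference did not pass the test (log2 fold change -0.22, SE 0.53, adjusted p = 0.725 by edgeR). Cldn1 was above free RNA, which held 0.337 to 38.4 CPM, in 0 of 10 BEC and 0 of 13 LSEC libraries. It was highest in dendritic cells, taken as barcodes with at least 2 UMIs of Flt3, at 8.45 to 64.4 CPM with a median of 34.6 and above free RNA in 13 of 13 libraries.

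The share of barcodes with a UMI gave the same order at a matched depth. After thinning each barcode to 1500 UMIs, the median share of BEC barcodes with Epcam was 78.4%, against 0.905% in LSEC and 2.72% in T cells, a cell type that should lack it. Unthinned, the medians for Epcam were 90.0% in BEC, 2.44% in LSEC and 8.04% in T cells. For Tjp1 the thinned medians were 18.4% in BEC, 36.0% in LSEC and 1.80% in T cells, and for F11r they were 37.0%, 24.8% and 1.75%.

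Hepatocytes were few, with 344104 UMIs in the 2 libraries together, so their values rest on small counts. Tested against them in the same fit, BEC differed in 4351 of 15091 genes (28.8%; 20.4% higher and 8.42% lower in BEC), and the median of all genes lay at a log2 fold change of 1.93. Of the 9 genes, 8 were higher and 1 lower in BEC, with a median of 4.91. Scaling by the total count alone moved the median of all genes to 2.38 and the split of calls from 3080 higher and 1271 lower to 4728 and 981. Epcam had 0 UMIs in hepatocytes, and BEC of the same 2 libraries stood at 1921 CPM. The lower bound of the exact two-sided 95% counting interval of their ratio was 179-fold. Counted against a set floor of 3 UMIs over both libraries (8.72 CPM), which is no bound, the ratio was 220-fold. Cldn4, Ocln and Tjp1 each had 1 UMI and Cldn7 and Cdh1 each had 2. The ratio of pooled BEC to hepatocyte levels was 171 for Cldn4 (95% exact counting interval 30.8 to 6775), 130 for Cldn7 (35.8 to 1070), 51.8 for Cdh1 (14.3 to 428), 42.3 for Tjp1 (7.58 to 1674) and 31.3 for Ocln (5.6 to 1236). These intervals cover counting error only. With 1 hepatocyte library left out, several of these counts fell to 0, and the fitted log2 fold change of Tjp1 went from 4.91 to 12.995 without D25 B and that of Ocln from 4.49 to 12.2 without STOP, which are no bounds. With a hepatocyte share of at least 2%, where Tjp1 had 4 UMIs in D25 B and 7 in STOP, its log2 fold change was 2.82.

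Cldn3, F11r and Cldn1 were the members with more than a few UMIs in hepatocytes. Cldn1 had 7 UMIs, at 17.6 CPM in D25 B and 23.0 CPM in STOP with 4.68 and 8.18 CPM in free RNA, against 3 UMIs in BEC of these libraries. It was above free RNA in 0 of the 2 hepatocyte sums, and Cldn3 and F11r each in 1 of 2. The fitted level of Cldn1 in BEC was lower (log2 fold change -6.66, SE 1.08, adjusted p = 0.000117 by edgeR), and the log2 fold change was -10.1 without STOP. F11r had 17 UMIs in D25 B and 4 in STOP, the latter at 23.0 CPM, and was higher in BEC (log2 fold change 2.14, SE 0.38, adjusted p = 0.000307 by edgeR), with a log2 fold change of 3.38 without D25 B and 1.74 without STOP. Cldn3 stood at 164.7 CPM in D25 B and 172.3 CPM in STOP, and free RNA at 116 and 73.3 CPM. Its BEC level of 763 ± 76.0 CPM (SD, n = 10) was higher by 1.74 on the log2 scale (SE 0.63, adjusted p = 0.0433 by edgeR). That call was lost with DESeq2 (adjusted p = 0.203), with at least 3000 UMIs per barcode (0.192), without D25 B (0.270) and without STOP (0.129). The call of Ocln was lost with DESeq2 (adjusted p = 0.0536).

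Large and small duct BEC were compared within the 9 libraries that held both, to ask whether ducts of different calibre differ in junction genes. The large duct sums held 21 barcodes in D5 B, 22 in D3 B, 29 in STOP, 40 in D9 B, 56 in D19 B, 59 in D25 B, 65 in D0 A, 363 in D9 A and 436 in D25 A. Counts of libraries below give each of these sums the same weight. F11r was lower and Tjp1, Cldn7 and Ocln were higher in large duct BEC, while Cldn3, Cldn4, Cdh1 and Epcam did not pass the test. By edgeR, 5468 of 12905 genes (42.4%) differed, 19.9% higher and 22.5% lower in large duct BEC. Of the 8 members tested, 4 differed, 3 of them higher and 1 lower, a share close to that of all genes, and DESeq2 called these 4 and Cdh1. The median log2 fold change was -0.05 over the 8 members and -0.07 over all genes.

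**Figure D2:**
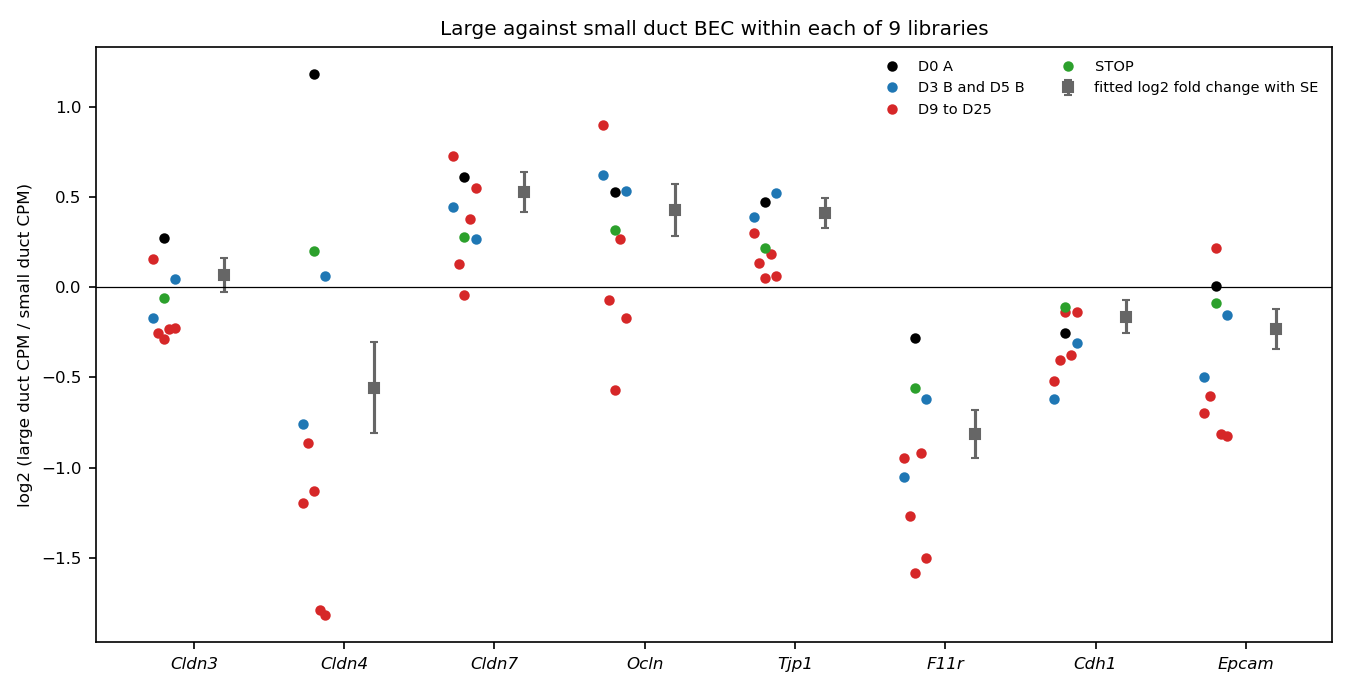
Log2 ratio of large to small duct CPM (vertical) for each of the 8 tested genes (horizontal), 1 point per library coloured by D0 A, D3 B and D5 B, D9 to D25, and STOP, with the fitted log2 fold change and its SE as a grey square. The points of F11r lie below 0 in 9 of 9 libraries and those of Tjp1 above 0 in 9 of 9, while those of Cldn4 lie above 0 in D0 A, D5 B and STOP and below 0 in the other 6.

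F11r, the gene of JAM-A, ran from 143 to 319 CPM (median 212) in large duct BEC and from 388 to 469 CPM in small duct BEC of all libraries but STOP, where it stood at 343. The ranges of the classes did not overlap. How many of all genes shared this was not counted, and 42.4% of all genes tested differed between the classes. The ratio of large to small duct BEC was 0.822 in D0 A, 0.680 in STOP and between 0.333 and 0.652 in the 7 libraries on the diet. In the fit F11r was 1.76-fold lower in large duct BEC (log2 fold change -0.81, SE 0.13, adjusted p = 0.000236 by edgeR). After thinning to 1500 UMIs, the median share of barcodes with F11r was 27.6% in large and 40.9% in small duct BEC, lower in large duct BEC in 9 of 9 libraries. The unthinned shares were close, at 90.0% and 89.7%.

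Tjp1, the gene of the ZO-1 scaffold, ran from 100.5 to 193 CPM (median 171) in large duct BEC and averaged 167 ± 28.4 against 138 ± 19.5 CPM (SD, n = 9 each). It was 1.33-fold higher in large duct BEC (log2 fold change 0.41, SE 0.08, adjusted p = 0.00117 by edgeR) in 9 of 9 libraries, with ratios of 1.04 to 1.44. The ranges overlapped, so the difference was seen within libraries. In D0 A, D9 A and D25 A, Tjp1 of both classes lay below the free RNA of the library. It stood there at 190, 169 and 171 CPM in large and at 137, 138 and 150 CPM in small duct BEC. Cldn7 ran from 764 to 1717 CPM (median 1094) in large duct BEC and averaged 1164 ± 317 against 886 ± 179 CPM (SD, n = 9 each). It was 1.44-fold higher (log2 fold change 0.53, SE 0.11, adjusted p = 0.00165 by edgeR) in 8 of 9 libraries, the exception being D19 B with a ratio of 0.972. Ocln ran from 55.6 to 155 CPM in large duct BEC and averaged 97.4 ± 32.1 against 79.7 ± 18.3 CPM (SD, n = 9 each). Its 1.35-fold difference (log2 fold change 0.43, SE 0.15, adjusted p = 0.0276 by edgeR), seen in 6 of 9 libraries, was the least firm of the 4. It was lost without the library D0 A (adjusted p = 0.0549), D3 B (0.0706), D9 A (0.0896) or D25 A (0.0603), and when scaled by total count alone (0.129). It was also lost with at least 50 barcodes per sum (0.138), with at least 10 UMIs of Dmbt1 and Muc4 (0.0521), with at least 5 keratin UMIs (0.0536) and without mesothelial marks (0.0787), so in 9 of the alternatives run, and was kept in the others.

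Cldn4, a claudin of tight epithelia, was lower in large duct BEC in 6 of 9 libraries but not beyond the threshold (log2 fold change -0.56, SE 0.25, adjusted p = 0.0942 by edgeR). It averaged 226 ± 105 CPM in large and 392 ± 222 CPM in small duct BEC (SD, n = 9 each). The ratio of large to small duct BEC was 2.27 in D0 A, 0.592 in D3 B, 1.04 in D5 B, 0.436 in D9 A, 0.549 in D9 B, 0.456 in D19 B, 0.290 in D25 A, 0.283 in D25 B and 1.15 in STOP. The libraries off the diet, D0 A and STOP, thus stood above 1 together with D5 B, and those from D9 to D25 stood at 0.549 or less. The large duct sums of D5 B and STOP held only 21 and 29 barcodes. Leaving out D0 A brought Cldn4 past the threshold (log2 fold change -0.77, adjusted p = 0.00747 by edgeR), as did leaving out STOP (adjusted p = 0.0484) and barcodes with marks of another lineage (log2 fold change -1.22, adjusted p = 0.00401). It also passed without the filter on low counts (adjusted p = 0.00951) and with at least 5 keratin UMIs (0.0491). The fit without marks of another lineage had also lost at least the libraries D5 B (ratio 1.04) and D19 B (0.456). The part of that loss in the value of Cldn4 was not tested. Thinned shares of barcodes with Cldn4 had medians of 15.2% in large and 30.5% in small duct BEC and were lower in large duct BEC in 8 of 9 libraries.

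Epcam averaged 1426 ± 593 CPM in large and 1808 ± 485 CPM in small duct BEC (SD, n = 9 each) and did not pass the test (log2 fold change -0.23, SE 0.11, adjusted p = 0.117 by edgeR), but passed without marks of another lineage (-0.56, 0.00381) and without D19 B (-0.29, 0.0479). The fit without marks of another lineage had also lost at least the libraries D5 B and D19 B. Cdh1 averaged 363 ± 67.2 and 458 ± 107 CPM (SD, n = 9 each), lower in large duct BEC in 9 of 9 libraries, and did not pass either (log2 fold change -0.16, SE 0.09, adjusted p = 0.168), although DESeq2 called it (-0.17, adjusted p = 0.0467). Cldn3 averaged 727 ± 74.4 and 773 ± 97.8 CPM (SD, n = 9 each), and the fitted log2 difference was 0.07 (SE 0.09, adjusted p = 0.585), which turned to -0.084 when scaled by total count alone, to -0.028 without marks of another lineage and to -0.011 without mesothelial marks. The thinned shares of barcodes did not always follow the CPM. Epcam had medians of 82.5% in large and 81.1% in small duct BEC and was higher in large duct BEC in 6 of 9 libraries, against the direction of its CPM. The thinned share was higher in large duct BEC in 6 of 9 libraries for Tjp1, Cldn7 and Cldn3, in 5 of 9 for Ocln and in 3 of 9 for Cdh1. Cldn1, at 0 to 1.12 CPM in large and 0 to 1.54 CPM in small duct BEC, was too low to test. Scaling by total count alone moved the median of all genes by -0.18, and all members moved down with it. The split of calls then went from 2568 higher and 2900 lower to 1907 and 4402, and Cldn4 (-0.71, adjusted p = 0.0426), Cdh1 (-0.32, 0.006) and Epcam (-0.39, 0.0174) passed the threshold as lower in large duct BEC. F11r stayed lower and Tjp1 and Cldn7 stayed higher under that scaling.

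The Dmbt1 and Muc4 threshold that split the ducts was not sharp for several of these genes in pooled values. In barcodes with 0, 1, 2, 3 to 9 and at least 10 UMIs of Dmbt1 and Muc4, numbering 3167, 114, 70, 343 and 754, F11r pooled to 419, 352, 257, 234 and 220.2 CPM. Cldn4 pooled to 374, 347, 262, 222 and 134 CPM over the same bands, and Cldn7 to 924, 1067, 1176, 1396 and 1489 CPM. Tjp1, at 139, 178, 154, 171 and 166 CPM, and Ocln, at 78.7, 76.0, 81.0, 92.6 and 89.3 CPM, had no steady course. These values are pooled over libraries that hold different shares of the bands. Between the bands of at least 10 and of 0 UMIs, in the 7 libraries with at least 20 barcodes in both, F11r was lower in the former in 7, Cldn4 lower in 6 and Cldn7 higher in 6. Between at least 10 and 3 to 9 UMIs, only 3 libraries held both bands. F11r and Cldn4 were each lower in the band of at least 10 UMIs in 2 of these 3, and Cldn7 was higher there in 3. At the keratin threshold, Epcam pooled to 123 CPM in 1987 barcodes with 1 keratin UMI, 639 CPM in 391 barcodes with 2 and 1593 CPM in 4057 barcodes with at least 3. Tjp1 went the other way, from 241 to 173 and 148 CPM.

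Other cell types' markers moved with the duct classes. The mesothelial list (Msln, Upk3b, Wt1 and Gpm6a) summed to 197 to 959 CPM in small duct BEC and 5.39 to 245 CPM in large duct BEC, and was higher in large duct BEC in 1 of 9 libraries. The stellate cell and fibroblast list of 5 genes summed to 364 to 2629 and 12.6 to 2505 CPM, and the LSEC list of 8 genes to 235 to 1438 and 26.9 to 1244 CPM, each higher in large duct BEC in 1 of 9 libraries. The list of 3 genes for other endothelium summed to 41.0 to 266 and 4.49 to 243 CPM (higher in large duct BEC in 2 of 9), the leukocyte list of 7 genes to 26.0 to 302 and 25.0 to 1437 CPM (2 of 9), and the hepatocyte list of 8 genes to 625 to 6572 and 1454 to 3386 CPM (4 of 9). Within the mesothelial list, Msln ran from 1.80 to 241 CPM in large duct BEC, while Upk3b reached at most 2.83 and Wt1 at most 2.24 CPM. In D19 B, 37 of 56 large duct barcodes held at least 2 UMIs of Msln and Upk3b, and 0 held at least 2 of Upk3b and Wt1. How many large duct barcodes marked by Msln were of another cell type was not tested. Without barcodes that carried marks of another lineage, and so in fewer libraries, F11r, Tjp1 and Cldn7 kept their direction and their side of the threshold. The part of these markers in the other values was not tested.

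Mesothelial marks were followed further, because the mesothelium also expresses Krt7 and Krt19. This split was chosen after the values had been seen, and the levels of marked and unmarked barcodes are given without a test. Of 3167 small duct barcodes, 282 held at least 2 UMIs of Upk3b and Wt1, between 3.00% and 22.4% by library, with the highest shares in D19 A and D25 B. In large duct BEC the share was 0% to 1.69%. Epcam pooled to 161 CPM in the marked and 1861 CPM in the unmarked small duct barcodes. Cldn7 pooled to 84.9 and 984 CPM, Cldn3 to 100.1 and 815 CPM, Cldn4 to 31.9 and 399 CPM, Cdh1 to 42.6 and 486 CPM, and Ocln to 6.93 and 83.8 CPM. All 6 epithelial genes were lower in the marked barcodes in 5 of the 5 libraries with at least 20 such barcodes. F11r was lower too, but by less, at 278 against 429 CPM with ratios of 0.492 to 0.833. Tjp1 was nearly the same in both, at 141 and 139 CPM, with ratios of 0.967 to 1.13. When the fit between duct classes was repeated without the marked barcodes, an alternative also chosen after the values had been seen, Ocln lost its call between large and small duct BEC (adjusted p = 0.0787 by edgeR), and Cdh1 (0.0391) and Epcam (0.042) passed the threshold as lower in large duct BEC.

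**Figure D3:**
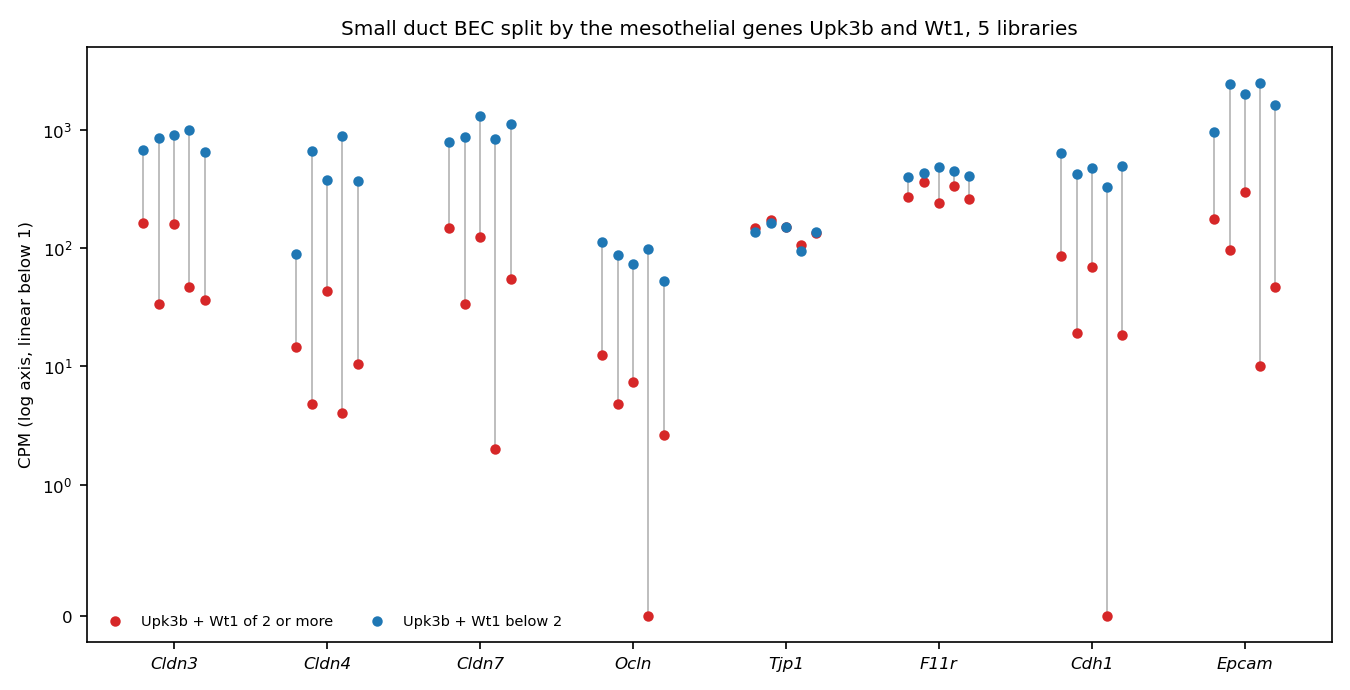
CPM (vertical, log axis that is linear below 1) of 8 genes in small duct BEC barcodes with and without at least 2 UMIs of Upk3b and Wt1, in the 5 libraries with at least 20 marked barcodes, 1 line joining the 2 values of a library. Cldn3, Cldn4, Cldn7, Ocln, Cdh1, Epcam and F11r are lower in the marked barcodes in 5 of 5 libraries, and Tjp1 in 2 of 5.

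Over the diet, small duct BEC were compared between the 8 DDC libraries and D0, and between progression and onset, with the isolation protocol as a covariate. In this fit and that of LSEC below, DDC was the mean of the onset and progression levels at equal weight. Small duct BEC had 2 onset and 6 progression libraries, so the fitted difference is not that of the plain mean over 8. No member passed the test in either comparison. By edgeR, 7 of 13911 genes (0.0503%) differed between DDC and D0, and 0 of the 8 members tested. At an unadjusted p under 0.05 there were 2267 genes, 3 of them members (Cldn4, Epcam and Ocln), and DESeq2 called 269 genes, 1 of them a member (Cldn4). Steady state was the single library D0 A, so the spread in this comparison and in its alternatives comes from the DDC libraries alone. D0 A was made by protocol A and both onset libraries by protocol B. The protocol term was therefore fitted from the progression libraries alone, and the raw means of small duct BEC below mix the protocols. D3 A and D5 A held only 12 and 3 small duct barcodes. The alternative within protocol A alone thus set progression, without onset, against D0. Markers of other cell types differed between D0 A and the DDC libraries. The hepatocyte list summed to 6572 CPM in small duct BEC of D0 A, 5346 CPM in D3 B and 625 to 2955 CPM in the other DDC libraries. The leukocyte list summed to 26.0 CPM in D0 A and to 90.9 to 302 CPM in the 8 DDC libraries. The share of barcodes with at least 2 UMIs of Upk3b and Wt1 was 7.33% in D0 A and ran from 4.31% in D5 B to 22.4% in D19 A on DDC. The part of these markers in the values below was not tested beyond leaving out marked barcodes.

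**Figure D4:**
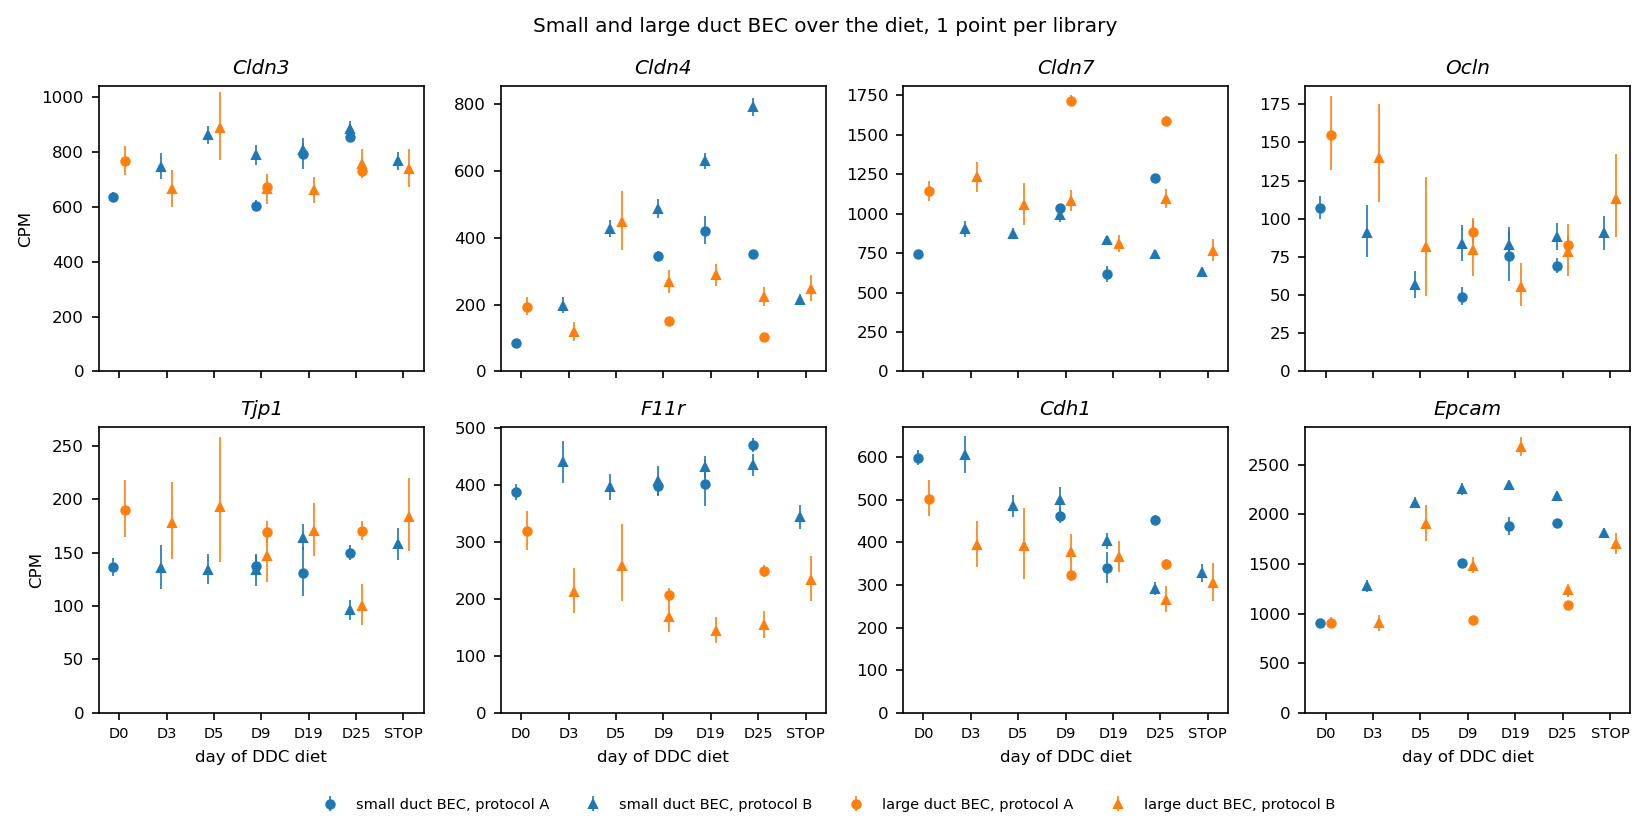
CPM (vertical) of 8 genes in small and large duct BEC by day of DDC diet and in STOP (horizontal), 1 point per library with its 95% exact counting interval, circles for protocol A and triangles for protocol B. In small duct BEC, Cldn4 stands at 85.2 CPM at D0 and between 197 and 792 CPM on the diet, while Cdh1 stands at 598 CPM at D0 and reaches 291 CPM in D25 B.

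Cldn4 had the largest difference of the members. It stood at 85.2 CPM in D0 A, 197 in D3 B, 428 in D5 B, 346 in D9 A, 486 in D9 B, 422 in D19 A, 631 in D19 B, 352 in D25 A and 792 in D25 B. All 8 DDC libraries were above D0, with a mean of 457 ± 184 CPM (SD, n = 8). The fitted log2 difference of 1.80 (SE 0.49) had an adjusted p of 0.158 by edgeR, and it passed with DESeq2 (1.83, adjusted p = 0.0052), without the filter on low counts (1.78, 0.000846), within protocol A alone (2.29, 0.0188) and without D3 B (2.06, 0.0256), each with the 1 library D0 A as the control. Without mesothelial marks the log2 difference was 1.88 (adjusted p = 0.126), and without marks of another lineage 1.89 (0.0926). Over 19 settings the adjusted p of Cldn4 ran from 0.000846 to 0.25.

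Epcam stood at 901 CPM in D0 A and at 1930 ± 368 CPM (SD, n = 8) on DDC, above D0 in 8 of 8 libraries (log2 fold change 0.95, SE 0.39, adjusted p = 0.270 by edgeR). Ocln stood at 107 CPM in D0 A and at 74.3 ± 15.1 CPM (SD, n = 8) on DDC, below D0 in 8 of 8 libraries (log2 fold change -0.69, SE 0.31, adjusted p = 0.30). Cdh1 stood at 598 CPM in D0 A and at 442 ± 97.7 CPM (SD, n = 8) on DDC, above D0 in 1 of 8 libraries, and the fitted log2 difference was -0.12 (SE 0.36, adjusted p = 0.898) once the protocol was in the fit. The other 4 members had log2 fold changes of 0.23 for Tjp1, 0.29 for F11r, 0.39 for Cldn3 and 0.57 for Cldn7, with adjusted p from 0.516 to 0.756. F11r stayed between 388 and 469 CPM from D0 to D25.

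Between progression (6 libraries) and onset (2 libraries), 0 of 13911 genes (0%) differed by edgeR, with 1029 genes at an unadjusted p under 0.05 and 33 called by DESeq2. Of the 8 members, Cldn4 alone reached an unadjusted p under 0.05, and 0 were called by DESeq2. Cldn4 averaged 505 ± 176 CPM (SD, n = 6) in progression and 312 ± 163 CPM (SD, n = 2) in onset, and the fitted log2 difference was 0.93 (SE 0.34, adjusted p = 0.592), which passed without the filter on low counts (0.95, 0.0499). Cdh1 averaged 408 ± 79.4 CPM (SD, n = 6) and 545 ± 85.0 CPM (SD, n = 2), and the fitted log2 difference was -0.51 (SE 0.26, adjusted p = 0.71). The remaining 6 had adjusted p of 0.827 or more.

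Whether the difference between large and small duct BEC itself changed on the diet was tested by an interaction term over 7 libraries on and 2 off the diet, a test added after the values had been seen. By edgeR, 3 of 12905 genes (0.0232%) passed, none of them a member, and DESeq2 was not run. Cldn4 had the largest term, -1.79 on the log2 scale (SE 0.37, unadjusted p = 0.000318, adjusted p = 0.170). Its adjusted p ran from 0.0666 without D5 B to 0.565 without D0 A. F11r followed with -0.71 (SE 0.26, unadjusted p = 0.0178, adjusted p = 0.477). The other members had adjusted p of 0.714 or more.

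In LSEC, the members that could be followed over the diet were Tjp1 and F11r. By edgeR, 19 of 11796 genes (0.161%) differed between DDC and D0, and 0 of the 6 members tested. There were 1324 genes and 1 member (Cdh1) at an unadjusted p under 0.05, and DESeq2 called 207 genes and 0 members. DESeq2 gave no adjusted p for 2 of the 6 members, Cldn3 and Cdh1. Between progression and onset 6 of 11796 genes (0.0509%) differed, and 0 of the 6 members. There were 953 genes and 4 members (Cldn3, Cldn7, Cdh1 and Epcam) at an unadjusted p under 0.05, and DESeq2 called 94 genes and 0 members.

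**Figure D5:**
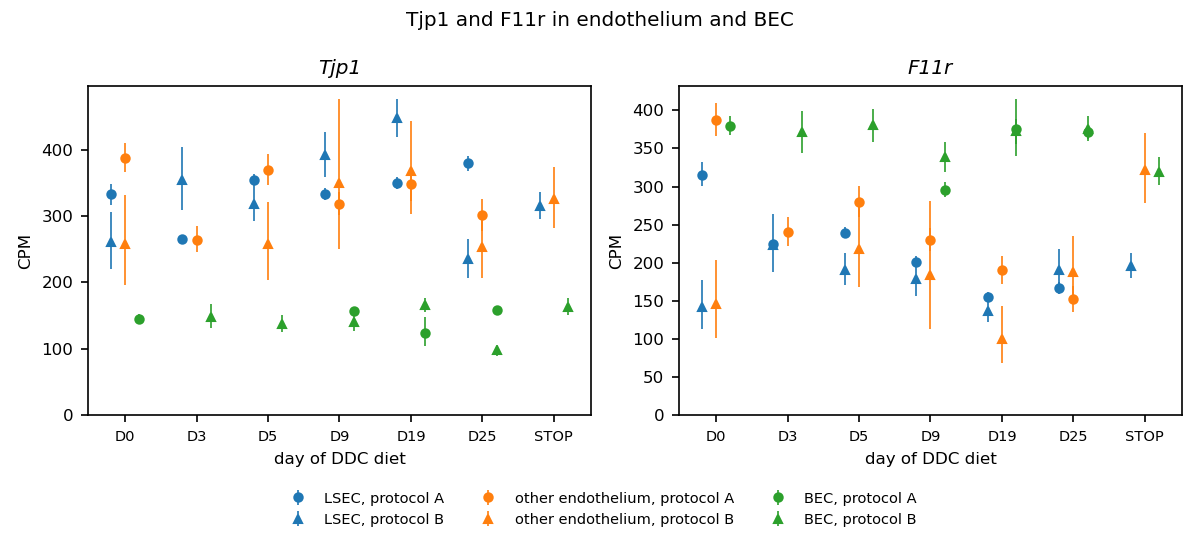
CPM (vertical) of Tjp1 and F11r in LSEC, the other endothelium and all BEC by day of DDC diet and in STOP (horizontal), 1 point per library with its 95% exact counting interval, circles for protocol A and triangles for protocol B. Tjp1 in LSEC lies between 235 and 447 CPM, above BEC of the same library, and F11r in LSEC stands at 316 CPM in D0 A and 142 CPM in D0 B.

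Tjp1 in LSEC stood at 333 CPM in D0 A and 261 CPM in D0 B and ran from 235 CPM in D25 B to 447 CPM in D19 B on the diet. The D0 libraries lay within the range of the DDC libraries (log2 fold change 0.30, SE 0.23, adjusted p = 0.694 by edgeR). F11r stood at 316 CPM in D0 A and 142 CPM in D0 B, a spread wider than that of all 10 DDC libraries, which ran from 137 to 239 CPM (log2 fold change -0.09, SE 0.22, adjusted p = 0.934 by edgeR). In progression F11r averaged 171 ± 23.5 CPM (SD, n = 6), below the onset mean of 219.5 ± 20.3 CPM (SD, n = 4) in 6 of 6 libraries, and did not pass the test (log2 fold change -0.36, SE 0.18, adjusted p = 0.639).

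The fits of the epithelial members in LSEC rest on few UMIs, and Cldn3, Cldn4, Cldn7, Cdh1 and Epcam were above free RNA in 0 of 13 LSEC sums and Ocln in 1 of 13. Set between progression and onset, Epcam differed by 3.36 on the log2 scale (adjusted p = 0.310 by edgeR), Cldn7 by 3.19, Cldn3 by 3.02 and Cdh1 by 2.71. Between DDC and D0, Cdh1 differed by -2.0 (adjusted p = 0.316). Without the filter on low counts Cldn3, Cdh1 and Epcam passed between DDC and D0, and Cldn3, Cldn7, Cdh1 and Epcam between progression and onset. Epcam also passed between progression and onset without D5 B (adjusted p = 0.0332). These 4 members stood at 0 to 14.6 CPM in LSEC. Hepatocytes could not be followed over the diet, since the 2 usable libraries were D25 B and STOP.

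After recovery, STOP was set beside D19 B, the protocol B library nearest to it in diet length, with 1 library each and so no replicate check. In small duct BEC, Cldn4 stood at 215 CPM in STOP and 631 CPM in D19 B, a ratio of 0.341 (95% exact counting interval 0.312 to 0.372), the lowest ratio of the members with more than 3 UMIs. Cldn7 had a ratio of 0.758 (0.716 to 0.802), Epcam of 0.787 (0.761 to 0.814), F11r of 0.796 (0.736 to 0.861) and Cdh1 of 0.815 (0.752 to 0.883). Cldn3, Tjp1 and Ocln had intervals that held 1, with ratios of 0.952, 0.961 and 1.09. The large duct sums held 29 barcodes in STOP and 56 in D19 B. In large duct BEC, Epcam had a ratio of 0.636 (0.592 to 0.682), while F11r with 1.63 (1.29 to 2.05) and Ocln with 2.03 (1.42 to 2.90) stood higher in STOP. Cldn4 in large duct BEC had a ratio of 0.861 (0.706 to 1.05), so that its difference between STOP and D19 B was small beside that in small duct BEC. In LSEC, Tjp1 had a ratio of 0.706 (0.644 to 0.773) and F11r of 1.43 (1.24 to 1.65). Markers of other cell types also differed between these 2 libraries. In large duct BEC the stellate cell and fibroblast list summed to 2505 CPM in STOP and 12.6 CPM in D19 B, the LSEC list to 1244 and 421 CPM, the other endothelium list to 243 and 69.9 CPM, and the large duct list to 562 and 1249 CPM. In small duct BEC the stellate cell and fibroblast list summed to 1138 CPM in STOP and 464 CPM in D19 B, the LSEC list to 1438 and 469 CPM, and the hepatocyte list to 3818 and 1146 CPM. The mesothelial list was lower in STOP, at 277 against 489 CPM in small duct BEC and 77.2 against 245 CPM in large duct BEC. At least 2 UMIs of Upk3b and Wt1 were held by 3.00% of small duct barcodes in STOP and 8.93% in D19 B. The part of these markers in the ratios was not tested. Counting intervals leave out the spread between mice and sorts, and the ratios describe these 2 libraries.

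The wider junction machinery was read from 5 lists, each tested within the fit over all genes. Of the tight junction list of 33 genes, 31 were tested between large and small duct BEC, 6 were higher and 12 lower in large duct BEC, with a median log2 fold change of -0.24. Of 14 adherens junction genes 2 were higher and 6 lower (median -0.38), of 8 desmosome genes 2 and 2 (median 0.14), of 5 genes for EpCAM partners and proteases 1 and 2 (median -0.03), and of 13 epithelial transcription factors and repressors 5 and 3 (median -0.16). The shares are to be read against the 42.4% of all genes called and their median of -0.07. Without the mesothelial-marked barcodes the counts were 5 and 11 of 30, 2 and 6 of 14, 2 and 2 of 8, 1 and 2 of 5, and 5 and 5 of 13.

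Elf3, an epithelial transcription factor, was higher in large duct BEC at 27.1 ± 10.3 against 6.83 ± 3.18 CPM (SD, n = 9 each; log2 difference 2.07 with SE 0.26 and adjusted p = 1.91e-05 by edgeR). Klf5, another epithelial transcription factor, stood at 605 ± 94.6 against 178 ± 39.0 CPM (log2 difference 1.93 with SE 0.12 and adjusted p = 3.89e-08). Nectin3, an adhesion molecule of the adherens junction, stood at 60.3 ± 7.59 against 18.5 ± 7.05 CPM (log2 difference 1.95 with SE 0.15 and adjusted p = 2.24e-07). All of these were higher in large duct BEC in 9 of 9 libraries. Cldn6, a claudin best known from embryonic epithelia, was lower at 8.32 ± 6.64 against 87.7 ± 20.8 CPM (log2 difference -3.27 with SE 0.22 and adjusted p = 7.50e-08), and Mpdz, a multi-PDZ scaffold of the tight junction, at 4.73 ± 5.36 against 27.6 ± 7.83 CPM (log2 difference -2.42 with SE 0.29 and adjusted p = 1.64e-05). Cldn15 was lower at 0.686 ± 1.24 against 20.7 ± 14.8 CPM (log2 difference -4.19 with SE 0.44 and adjusted p = 4.83e-06). In small duct BEC without the mesothelial-marked barcodes the mean of Cldn15 was 1.45 ± 0.946 CPM, and the gene was then too low to test. Cldn6 (-3.35) and Mpdz (-2.05) kept their difference there, as did Elf3 (1.96), Klf5 (1.87) and Nectin3 (2.08).

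Between BEC and LSEC, where 40.8% of all genes were higher and 32.9% lower in BEC, 24 of 31 tight junction genes were higher and 5 lower in BEC, as were 9 and 1 of 14 adherens junction genes, 8 and 0 of 8 desmosome genes, 5 and 0 of 5 EpCAM partners and proteases, and 11 and 4 of 15 transcription factors and repressors. Between BEC and hepatocytes, where 20.4% of all genes were higher and 8.42% lower, 19 of 31 tight junction genes, 8 of 14 adherens junction genes, 4 of 8 desmosome genes, 5 of 5 EpCAM partners and proteases and 6 of 15 transcription factors and repressors were higher in BEC, and 0 of any list were lower by edgeR. Over the diet, edgeR called 0 genes of every list in the 4 comparisons within small duct BEC and LSEC. The counts that follow are to be read against those over all genes. Between DDC and D0 in small duct BEC, where 2267 of 13911 genes reached p under 0.05 before adjustment and DESeq2 called 269, 11 of 31 tight junction genes, with a median log2 fold change of -0.36, did so, and 1 was called by DESeq2. Of the adherens junction list 3 of 14 did so and DESeq2 called 2, of the desmosome list 1 of 8 and 0, of the EpCAM partners and proteases 0 of 5 and 0, and of the transcription factors and repressors 2 of 14 and 0. Between progression and onset in small duct BEC, with 1029 of 13911 genes and 33 by DESeq2, these counts were 2, 1, 0, 0 and 0, with 0 called by DESeq2 in any list. In LSEC between DDC and D0, with 1324 of 11796 genes and 207 by DESeq2, they were 3 of 17, 1 of 10, 2 of 3, 0 of 3 and 3 of 7, with 1 tight junction gene called by DESeq2. In LSEC between progression and onset, with 953 of 11796 genes and 94 by DESeq2, they were 2, 0, 1, 0 and 4, with 1 desmosome gene and 2 transcription factors and repressors called by DESeq2. DESeq2 gave no adjusted p for 3, 0, 2, 1 and 3 genes of the lists in LSEC between DDC and D0. In both small duct comparisons it gave none for 1 transcription factor or repressor.

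The pattern of the members over all 109 sums of library and class, 31 of them of BEC, was compared with 11026 other genes by Pearson's r on log2(CPM + 1). The sums share libraries and so their free RNA and depth, and r is given as a description. The 10 sums over all BEC also hold the barcodes of the duct classes, and over the 99 sums that share no barcode, 21 of them of BEC, r was 0.973 for Fermt1, 0.613 for F11r and 0.228 for Tjp1. Over all 109 sums, the genes most like the mean of the members were Fermt1 (r = 0.979), which encodes a kindlin of integrin adhesion in epithelia, Anxa13 (0.975), Fxyd3 (0.975), Sftpd (0.973) and Hkdc1 (0.973). Fermt1 ran from 44.9 to 191 CPM in BEC sums and reached at most 3.24 CPM in the others. Among the members, the r with the mean of the other members was 0.969 for Cldn7, 0.966 for Cldn4, 0.955 for Ocln, 0.932 for Cldn3, 0.930 for Cdh1 and 0.903 for Epcam. F11r followed with 0.677, Tjp1 with 0.263 and Cldn1 with -0.384.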

How the data were processed

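Droplet scRNA-seq was measured in 13 mouse liver libraries (10x 3' kits), 6 time points by 2 isolation protocols and 1 recovery library. The deposited files hold whole-number UMI counts for every gene and barcode, which the authors had neither normalized nor filtered. Per the labels' processing notes, kallisto and GRCm38 were used, with versions not given in the sources used here. Without a cell annotation in use, barcodes were gated on raw UMIs of marker genes as given in the report, and a barcode that met more than 1 gate other than BEC entered none. Doublets were not removed. The genes, gates and lists were chosen with earlier results of these data known.

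Counts were summed per library and class, with at least 20 barcodes. Sums were tested in R 4.3.3 with edgeR 4.0.16 (TMM, filterByExpr, quasi-likelihood test, Benjamini-Hochberg adjustment over all genes tested, threshold 0.05), with the library as a block between classes and the protocol as a covariate over the diet. A standard error is the log2 fold change divided by the square root of F. DESeq2 1.42.0, other gates, other scaling and each library left out were alternatives. Shares were thinned to 1500 UMIs per barcode, and intervals are exact Poisson or Clopper-Pearson 95% intervals that cover counting error only. Named junction genes outside the 9 were the 3 with the largest change in each direction at a mean of at least 10 CPM. On simulated counts with 200 genes changed by a log2 value of 2, the fit recovered 91% of them between large and small duct BEC (12905 genes), 35% between DDC and D0 in small duct BEC (13911 genes) and 77.5% in LSEC (11796 genes), with 6.67%, 9.09% and 4.32% false calls.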

Additional observations from a re-analysis of the deposited data

Results flagged for a closer look

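The genes gave 13 values that stood out by fixed rules. In small duct BEC of progression, Cldn3 was lowest in D9 A at 604 CPM, with the next library at 789 CPM. In LSEC of onset, Cldn4 stood at 0.555 CPM in D5 B with the next library at 0.0552 CPM, and Epcam at 5.55 CPM in D5 B with the next at 0.221 CPM. A gap test raised these 3 of 36 groups, and chance raises about 1 in 20. The LSEC sum held 1800706 UMIs in D5 B and 18126590 UMIs in D5 A, so a single UMI gives more CPM in D5 B. Cldn4 and Epcam were above free RNA in 0 of 13 LSEC sums. Their gaps in LSEC thus rest on few UMIs and are not read as a difference in level.

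The log2 ratio of large to small duct BEC for Cldn4 averaged 0.69 off the diet and -1.36 in progression, a difference of -2.05 in which every library of one set lay on the opposite side of 0 from every library of the other. Off the diet were D0 A (1.18) and STOP (0.20), the latter with 29 large duct barcodes. The onset libraries D3 B (-0.76) and D5 B (0.063) were in neither set. The difference between the off-diet and progression sets was not tested, and the share of all genes so separated was not counted. The test of libraries on against off the diet gave an adjusted p of 0.170 by edgeR.

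Barcodes with at least 2 keratin UMIs that also held Ptprc, 1898 in all, were in no comparison and carried the epithelial genes. Their medians over 9 libraries were 503 CPM for Cldn3, 207 for Cldn4, 569.8 for Cldn7, 45.7 for Ocln, 239 for F11r, 284 for Cdh1 and 1238 for Epcam. Whether they are doublets was not tested. Cldn1 reached a median of 34.6 CPM in dendritic cells over 13 libraries, and Tjp1 a median of 322 CPM in the other endothelium over 12 libraries.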

How the results depend on the processing

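Each member past the threshold in a comparison kept its direction under every alternative run for it. Between BEC and hepatocytes (4351 genes by edgeR), 2743 genes passed with at least 3000 UMIs per barcode, 6569 with a hepatocyte share of at least 2%, and 2342 to 2518 when a hepatocyte library (STOP or D25 B) was left out, 2342 of them without STOP. Between DDC and D0 in small duct BEC (7 genes), 269 passed by DESeq2, 918 without the filter on low counts, 3 when scaled by total count alone (1 higher and 2 lower against 5 and 2), 2 without marks of another lineage, 199 without the protocol term, 371 in protocol A alone, 4 with at least 5 keratin UMIs, 25 without mesothelial marks, and 0 to 287 with 1 library left out. Between progression and onset in small duct BEC (0 genes), 33 passed by DESeq2, 313 without the filter and 0 to 26 with 1 library left out. In LSEC between DDC and D0 (19 genes), 207 passed by DESeq2, 484 without the filter, 29 by total count (7 higher and 22 lower against 8 and 11), 39 in protocol A alone, 29 in protocol B alone and 8 to 98 with 1 library left out. In LSEC between progression and onset (6 genes), 94 passed by DESeq2, 414 without the filter, 3 without the protocol term, 92 in protocol A alone, 0 in protocol B alone and 1 to 62 with 1 library left out. Between large and small duct BEC, 4349 to 5567 genes passed with 1 library left out. In small duct BEC, protocol A alone had no onset sum and set progression against D0. The cause of these changes was not tested.

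For single members, 767 values kept their direction and side of the threshold, 26 passed the threshold only under an alternative, 14 lost it, and 20 changed sign while past the threshold in neither fit. Those 20 were the following log2 differences. Between large and small duct BEC, Cldn3 was -0.084 by total count, -0.028 without marks of another lineage and -0.011 without mesothelial marks. In small duct BEC between DDC and D0, Cdh1 was 0.017 without marks of another lineage and ran from -0.21 to 0.026 with 1 library left out. In small duct BEC between progression and onset, total-count scaling gave 0.040 for Cldn3 and 0.023 for F11r, Cldn3 was 0.013 without mesothelial marks, and Ocln was -0.0030 without the protocol term. With 1 library left out, the values there ran from -0.17 to 0.17 for Cldn3, from -0.084 to 0.47 for Ocln, from -0.29 to 0.070 for Tjp1 and from -0.028 to 0.83 for Epcam. In LSEC between DDC and D0, protocol B alone gave 5.07 for Cldn7, 0.32 for F11r and 0.64 for Epcam. With 1 library left out, the values there ran from -2.76 to 6.93 for Cldn3, from -1.99 to 7.14 for Cldn7, from -0.40 to 0.36 for F11r and from -2.42 to 0.20 for Epcam, each turning without D0 A. Total-count scaling moved the median of all genes by -0.18 between DDC and D0 in small duct BEC and by -0.13 in LSEC. Not run were sums of at least 50 barcodes for hepatocytes, small duct DDC against D0 in protocol B alone or without D0 A, small duct progression against onset in protocol A alone, and hepatocytes over the diet. Few UMIs lie behind Cldn1 in BEC, the epithelial genes in LSEC and the hepatocyte values.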
